A study of Rattus norvegicus with 36 samples.

Results

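The constitutive proteasome was followed through its subunit genes in dorsal root ganglia of the rat, which hold the cell bodies of sensory neurons next to the spinal cord. Members were all probe sets whose platform annotation gave a single gene symbol beginning with Psma, Psmb, Psmc or Psmd, without the inducible subunits Psmb8, Psmb9 and Psmb10. This took 73 of 26202 probe sets, for 34 genes: 34 probe sets of 13 core genes (Psma, Psmb) and 39 probe sets of 21 cap genes (Psmc, Psmd). Of these, 64 were bright enough to be tested, 31 core and 33 cap, among 15721 tested probe sets in all, and every one of the 34 genes kept a tested probe set. The 9 dim ones were not tested. The symbol rule brought in 4 genes that are not subunits: Psmd5, Psmd9 and Psmd10, chaperones that assemble the cap base, and Psmc3ip, a meiotic recombination factor that matched by its symbol. It left out Psmb6, whose probe sets were annotated to more than 1 gene.

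Total RNA was measured on 36 Affymetrix RG_U34 arrays of 3 chip types. There were 6 pools, from 3 conditions at 28 and at 50 days after surgery. The L5 pools held ganglia of rats in which the L5 spinal nerve had been tied off (L5 SNL), a model of neuropathic pain. The L4 pools held the neighbouring ganglia of operated rats, with their own spinal nerve left untied. Sham pools mixed the L4 with the L5 ganglia of sham-operated rats, so normal differences between the 2 ganglia enter each comparison. Pools were of 30 rats where the labels give a number, and strain, sex and age are not given in the sources used here. RNA of a pool was hybridised to 2 arrays per chip type, and per the series' design text the arrays carry no biological replication. The pools of 28 and 50 days therefore stood as the 2 replicates of a condition. The fit to the 6 pools held a term for the day, which takes out the shift that the conditions share. So p-values measure how far the day difference varied between conditions, not the whole spread between the 2 pools.

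The proteasome is the barrel-shaped protease that degrades proteins tagged with ubiquitin. Its core is built of rings of alpha subunits, which form the gate, and rings of beta subunits, of which Psmb5, Psmb6 and Psmb7 cut the substrate. The cap binds the tagged protein, removes the ubiquitin and feeds the chain into the core: its base holds a ring of ATPases (Psmc) and the large subunits Psmd1, Psmd2 and the ubiquitin receptor Psmd4, and its lid holds the deubiquitinase Psmd14. In neurons, proteasomes act in the cell body, the axon and the synapse. Bulk tissue gives 1 value for all cells of a ganglion, so fewer cells of a type and less RNA per cell cannot be told apart.

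Most cap and core genes lay lower in the ligated L5 ganglia than in sham. The medians of the 2 parts were close at 28 days (-0.18 for the cap, -0.16 for the core) and apart at 50 days (-0.46 and -0.14). Without the 4 genes that are not subunits the cap gave -0.30 at 28 and -0.43 at 50 days, so the parts were then apart at both days. Values are differences of log2(signal + pseudocount), relative to an array's mean level, from a limma fit to the 6 pools; a gene with several probe sets stands by its brightest tested one. The median of the 21 cap genes was -0.38, with 18 of 21 below 0, and that of the 13 core genes was -0.15, with 12 of 13 below 0. The median over 8279 named genes was 0.00, with 50.1% below 0. The difference between core and cap was not tested. Against L4 ganglia the medians were -0.42 for the cap, with 18 of 21 below 0, and -0.13 for the core, with 9 of 13 below 0. L4 against sham gave 0.03 and 0.02. Over all tested member probe sets the medians against sham were -0.30 for the cap and -0.17 for the core. At 50 days they were -0.41 and -0.21, so the parts lay closer together than by brightest probe sets.

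Single members rarely passed the threshold (Benjamini-Hochberg adjusted p under 0.05 over all tested probe sets). In L5 against sham 1 of 64 member probe sets passed, a Psmd1 probe set that was lower, beside 0.782% of all tested. In L5 against L4 the same probe set was the 1 that passed, beside 1.28% of all tested. In L4 against sham no member passed, beside 0% of all tested; at an unadjusted p under 0.05, 2 members were higher and 0 lower, among 427 probe sets in all. At an unadjusted p under 0.05, 15 of 64 member probe sets (23.4%) were lower in L5 than in sham, beside 9.47% of all tested, and 1 was higher. Against L4 there were 19 of 64 (29.7%) lower, beside 10.9%, and 1 higher. All 4 L5 arrays lay below all 4 sham arrays for 14 of 64 member probe sets (21.9%), beside 7.56% of all tested. They lay below all 4 L4 arrays for 19 of 64 (29.7%), beside 9.02%. L5 against sham and L5 against L4 share the L5 pools. Members were bright: the brightest probe sets of their genes stood at a median signal percentile of 91.0 (core) and 70.9 (cap). The shares over all tested were not matched for signal. With only probe sets above the 60th percentile of mean signal tested, 1 member probe set passed against sham, beside 1.46% of all tested. With the arrays of a pool entered apart and the pool as a random block, 11 member probe sets passed against sham, 10 lower and 1 higher (7.08% of all tested), and with arrays scaled to hybridisation controls 26 passed (18.3% of all tested). With no term for the day 0 passed, of members and of all probe sets.

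**Figure D1:**
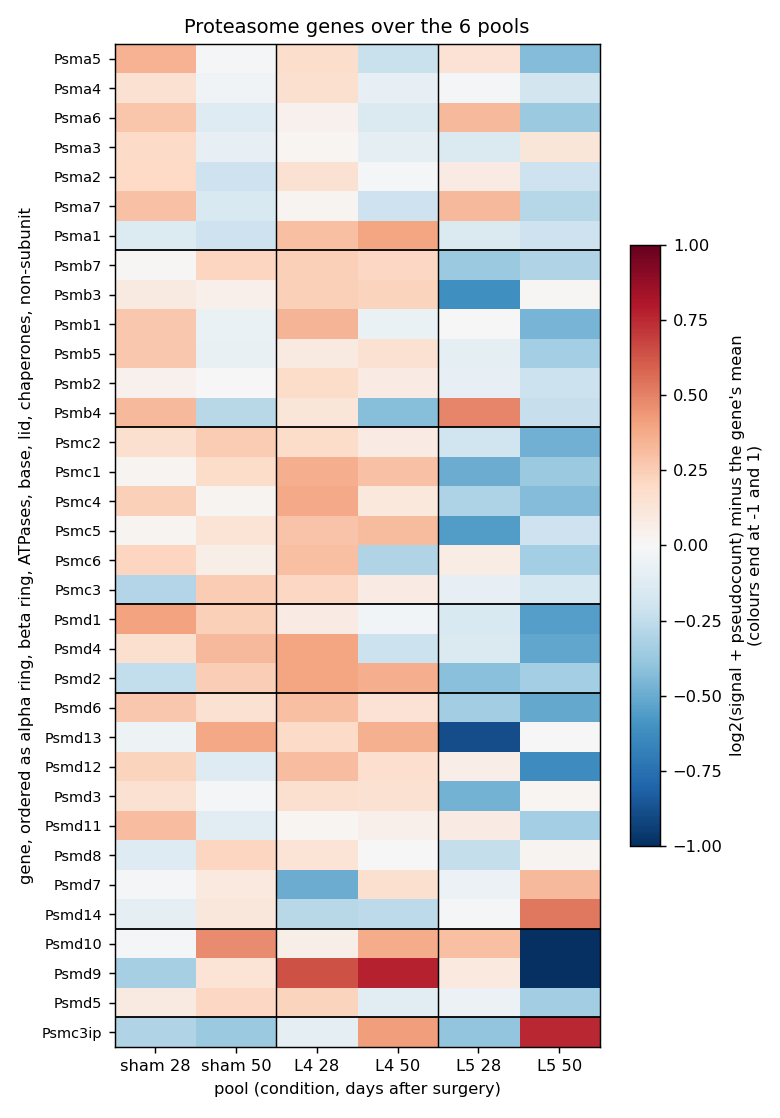
Level of each of the 34 genes (rows, brightest tested probe set) in each of the 6 pools (columns: condition and days after surgery), as log2(signal + pseudocount) minus the gene's own mean over the pools; blue is below and red above that mean. For 28 of 34 genes the lowest pool was an L5 pool.

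The plot of levels by pool shows where each gene was lowest. An L5 pool was the lowest of the 6 for 28 of 34 member genes (82.4%): the 50-day pool for 18 (52.9%) and the 28-day pool for 10 (29.4%). Over all named genes it was the lowest for 47.9%, the 50-day pool for 25.5% and the 28-day pool for 22.3%. The L4 pool of 28 days was the highest for 14 of the 34 (41.2%), beside 12.7% of all named genes.

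Promoter sequences are shown for 4 members: the gene with the called probe set (Psmd1), an ATPase gene (Psmc1) and 2 beta-ring genes (Psmb5, Psmb2). They are the 250 bases before the RefSeq start in assembly GRCr8, read 5′ to 3′ on the gene's strand. Capitals mark 2 motifs searched on both strands, TGACNNNGC, the core of the antioxidant response element that the factors Nfe2l1 and Nfe2l2 bind, and CCAAT. In Psmb2 the motifs overlap and share a T.
Psmd1 (chr9:94157721-94157970, plus strand): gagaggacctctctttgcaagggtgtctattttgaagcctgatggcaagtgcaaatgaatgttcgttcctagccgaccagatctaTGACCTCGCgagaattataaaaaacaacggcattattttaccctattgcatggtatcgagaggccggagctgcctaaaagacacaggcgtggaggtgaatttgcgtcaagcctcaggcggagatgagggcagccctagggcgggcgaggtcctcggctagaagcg
Psmc1 (chr6:125122247-125122496, plus strand): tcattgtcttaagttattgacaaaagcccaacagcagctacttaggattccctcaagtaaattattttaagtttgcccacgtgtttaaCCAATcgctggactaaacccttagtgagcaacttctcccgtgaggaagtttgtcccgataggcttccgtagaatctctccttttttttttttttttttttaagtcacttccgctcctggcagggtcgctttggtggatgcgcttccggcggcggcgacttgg
Psmb5 (chr15:32047380-32047629, minus strand): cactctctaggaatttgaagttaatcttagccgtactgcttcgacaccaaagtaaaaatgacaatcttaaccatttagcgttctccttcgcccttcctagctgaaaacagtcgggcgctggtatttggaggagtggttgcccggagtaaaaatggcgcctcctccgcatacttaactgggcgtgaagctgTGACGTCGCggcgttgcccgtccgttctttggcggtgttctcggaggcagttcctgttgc
Psmb2 (chr5:144254808-144255057, plus strand): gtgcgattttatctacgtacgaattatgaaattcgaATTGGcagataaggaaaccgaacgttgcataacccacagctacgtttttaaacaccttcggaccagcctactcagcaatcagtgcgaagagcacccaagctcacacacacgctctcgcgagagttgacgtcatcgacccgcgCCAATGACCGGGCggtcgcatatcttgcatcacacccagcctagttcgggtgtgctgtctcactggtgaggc
Sequences were found for 30 of 34 genes, without Psma7, Psmd6, Psmd12 and Psmd14. In the window from 250 bases before to 50 after the start, TGACNNNGC was found in 6 of 30 members (20%) and in 12.06% of 33469 promoters. CCAAT was found in 17 of 30 (56.67%), against 37.49% of all promoters: in 9 of 12 core and in 8 of 18 cap genes. No count here was tested, and the ATPase genes Psmc2, Psmc4, Psmc5 and Psmc6 held neither string in this window.

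Among the large base subunits, Psmd1 had 3 tested probe sets, whose differences varied in size. The called one, AJ006340_s_at, read 445 and 462 in sham (28 and 50 days), 452 and 428 in L4, and 239 and 216 in L5. The L5 pools stood apart from all others, and no L5 array reached the lowest sham or L4 array. It fell to 0.515 of sham, by 0.96 ± 0.19 (SE, n = 2 pools; limma adjusted p = 0.0442), and relative to L4 by 0.91 ± 0.19 (adjusted p = 0.0452). L4 and sham differed by -0.05. The brightest Psmd1 probe set, U57050_g_at, read 1475 and 1318 in sham, 1182 and 1091 in L4, and 1002 and 770 in L5, with the L4 pools between sham and L5. Its differences were -0.67 ± 0.17 against sham (adjusted p = 0.0986), -0.38 against L4, and -0.29 for L4 against sham. The third probe set gave -0.08. The call against sham was lost without either sham pool (adjusted p = 0.176 without 28 days, 0.313 without 50 days) and the call against L4 without either L4 pool (0.106 and 0.0593); with quantile normalization the adjusted p values were 0.0753 and 0.0855. Over the alternatives that kept this probe set and tested it, the adjusted p ran from 0.00115 to 0.313 against sham and from 0.000255 to 0.249 against L4.

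The other base subunits gave values on the same side of 0. Psmd4, which holds ubiquitin chains, read 846 and 947 in sham, 1001 and 664 in L4, and 683 and 523 in L5. All 4 L5 arrays were below all 4 sham arrays, but not below the L4 arrays (-0.57 ± 0.21 against sham, adjusted p = 0.193). It gave -0.90 without the 28-day and -0.25 without the 50-day sham pool. Of its 4 probe sets 3 were lower and rc_AI236731_at was higher, by 0.55, so its probe sets disagreed. Psmd2, a partner of Psmd1 in the base, gave -0.38 ± 0.19 against sham and -0.76 against L4 (adjusted p = 0.0880), where all 4 L5 arrays lay below.

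The ATPase genes, whose products unfold the substrate, had all 6 differences from sham below 0, with a median of -0.48, and 4 of 6 at an unadjusted p under 0.05. None passed adjustment. Psmc1 read 418 and 463 in sham, 527 and 500 in L4, and 286 and 312 in L5. Its difference was -0.54 ± 0.19 against sham (adjusted p = 0.177) and -0.76 against L4 (adjusted p = 0.0737). Psmc5 read 580 and 629 in sham, 699 and 715 in L4, and 383 and 494 in L5 (-0.46 ± 0.18 against sham, adjusted p = 0.227; -0.68 against L4, adjusted p = 0.0886). In both genes the L4 pools were the highest and the L5 pools the lowest, with no overlap between arrays of L5 and either other condition.

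Psmc4 read 323 and 280 in sham, 362 and 294 in L4, and 218 and 200 in L5 (-0.50 ± 0.20). Psmc2 read 350 and 375 in sham, 355 and 333 in L4, and 269 and 220 in L5 (-0.55 ± 0.20), and its other tested probe set gave -0.07. On the brightest probe sets of Psmc4 and Psmc2 the L5 arrays lay below those of sham and L4. Psmc6 (-0.27 ± 0.19) and Psmc3 (-0.11 ± 0.22) overlapped with both; Psmc6 gave 0.050 on the second array of each pool. Psmc3 read 242 in sham and 282 in L5 at 28 days, and 359 and 268 at 50 days, so the order of the pools differed between the days, and it gave 0.044 without the 50-day L5 pool and 0.22 without the 50-day sham pool.

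**Figure D2:**
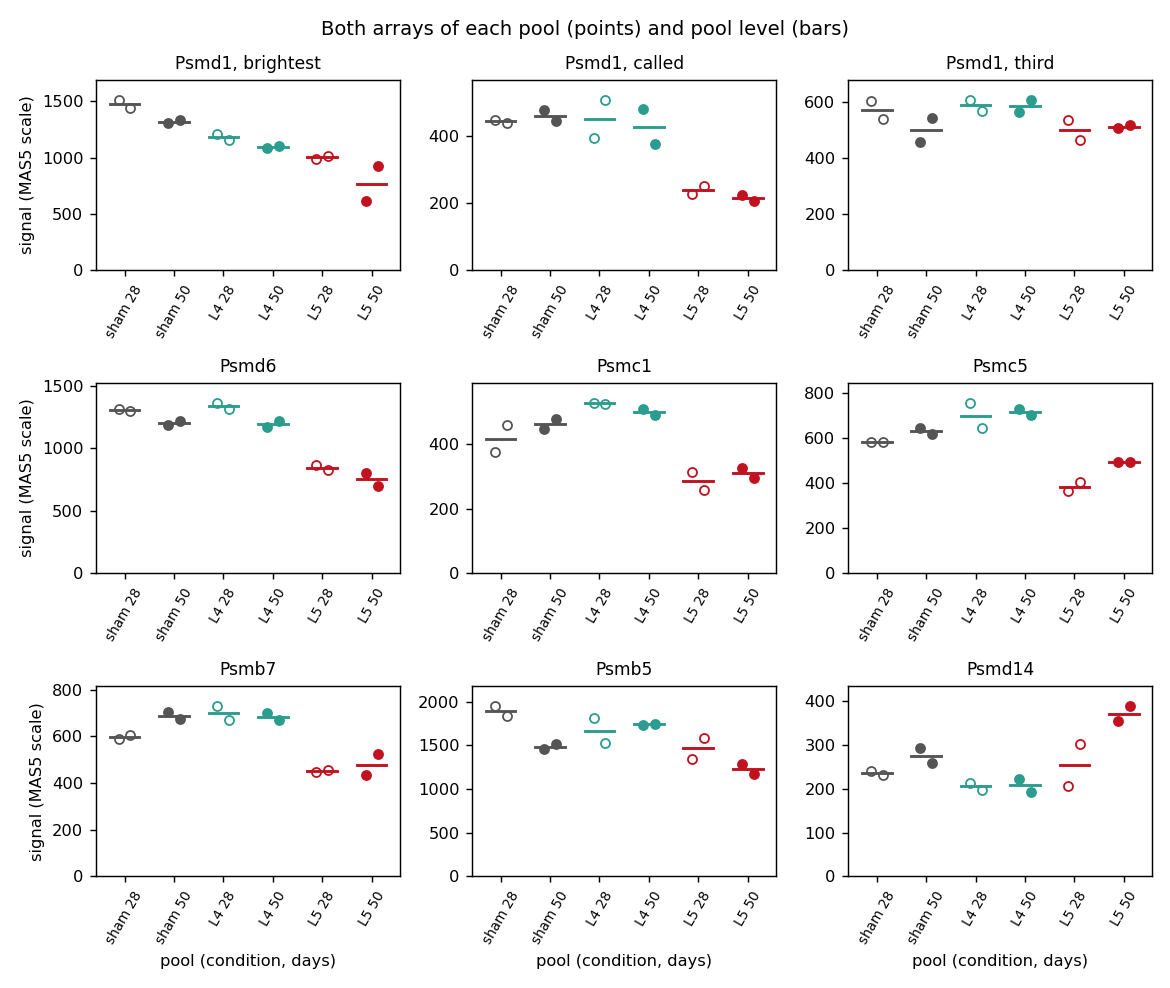
Signal on the MAS5 scale for both arrays of each pool (points, open at 28 and filled at 50 days) and the pool level (bars) for 3 Psmd1 probe sets and for Psmd6, Psmc1, Psmc5, Psmb7, Psmb5 and Psmd14. For the called Psmd1 probe set, Psmd6, Psmc1, Psmc5 and Psmb7 no L5 array reached an array of sham or L4; Psmd14 was highest in the 50-day L5 pool.

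The lid, a ring of scaffold subunits around the deubiquitinase, was mixed. Its 8 genes had a median of -0.26 against sham, with 6 below 0. Psmd6, a scaffold subunit, read 1305 and 1204 in sham, 1339 and 1198 in L4, and 844 and 754 in L5. All L5 arrays lay below all others, and both arrays of a pool were close (SD 0.065 on the log2 scale). The difference was -0.64 ± 0.17 against sham (adjusted p = 0.109) and -0.66 against L4 (adjusted p = 0.0887). Psmd13, also a scaffold subunit, read 154 and 203 in sham, 176 and 199 in L4, and 78.0 and 154 in L5, so its 28-day L5 pool stood lowest (-0.61 ± 0.25, adjusted p = 0.245; -0.32 without that pool).

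Psmd14, the deubiquitinase that removes ubiquitin as a substrate enters, read 236 and 276 in sham, 206 and 208 in L4, and 254 and 371 in L5. It lay on the other side of 0 from most members, at 0.24 ± 0.20 against sham (adjusted p = 0.558) and 0.52 against L4 (adjusted p = 0.199), and at -0.31 and -0.23 when arrays were scaled to hybridisation controls. Against sham it gave 0.46 without the 28-day and 0.032 without the 50-day L5 pool. Psmd7, its partner in the lid, gave 0.09 ± 0.24, and -0.32 with that scaling. The arrays overlapped for both.

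Of the 4 genes that are not subunits, Psmd10, Psmd9 and Psmc3ip differed between the days by their brightest probe sets. Psmd10 read 302 and 416 in sham, 309 and 392 in L4, and 369 and 139 in L5. Psmd9 read 93.2 and 118 in sham, 175 and 191 in L4, and 115 and 31.3 in L5. For both, the 50-day L5 pool was the low one on these probe sets. For Psmd9 its arrays read 41.2 and 21.4, and 1 array of the 28-day sham pool read 37.4. Their differences from sham were 0.32 at 28 and -1.65 at 50 days for Psmd10, and 0.43 and -1.43 for Psmd9, with an SD of 0.52 and 0.53 between arrays of a pool. Without the 50-day L5 pool Psmd10 gave 0.28, and its other tested probe set gave 0.07. The other tested probe set of Psmd9 gave -0.20 at 28 and 0.19 at 50 days, and -0.004 in the fit, so its probe sets disagreed. Psmc3ip gave -0.09 at 28 and 1.13 at 50 days. Without these 4 genes the 17 cap subunits had the same median difference from sham in the fit, -0.38. At the single days their median was -0.30 at 28 and -0.43 at 50 days.

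**Figure D3:**
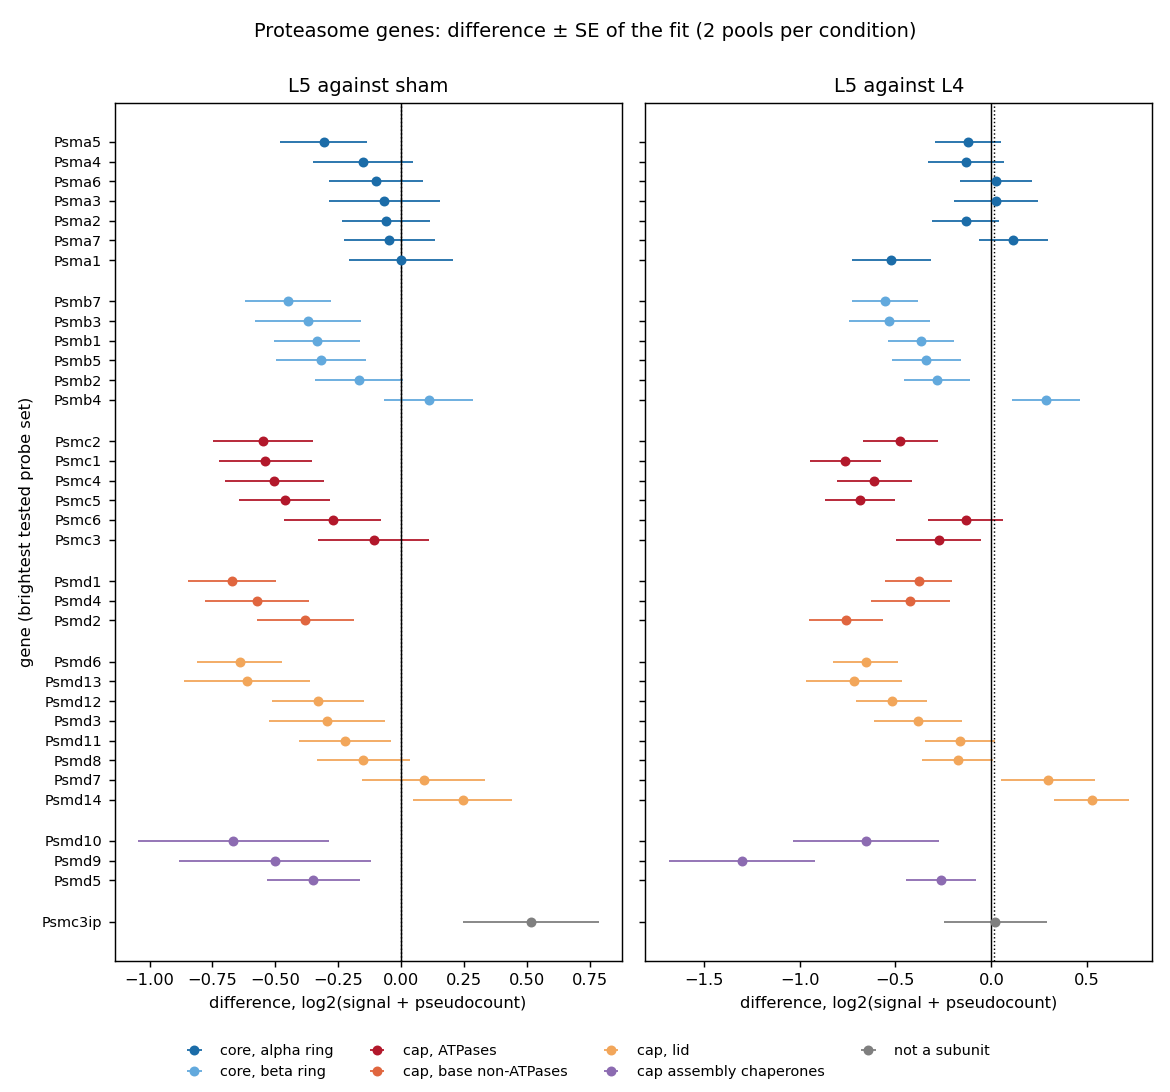
Difference of L5 against sham (left) and against L4 (right) for each gene, on the log2(signal + pseudocount) scale, with the standard error of the fit over 2 pools per condition; colours give the class and the dotted line the median of all named genes. All 6 ATPase genes lie below 0 on both sides, and the 7 alpha-ring genes lie between -0.31 and 0 against sham.

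In the core, beta-ring genes lay further from 0 than alpha-ring genes, a difference that was not tested. The 6 beta genes had a median of -0.33 against sham, 5 below 0. Psmb7, which carries the trypsin-like site, read 597 and 689 in sham, 699 and 683 in L4, and 452 and 478 in L5. Among brightest probe sets of the core it was the 1 whose L5 arrays all lay below all sham arrays (-0.45 ± 0.17, adjusted p = 0.224), and they lay below all L4 arrays too (-0.55, adjusted p = 0.131). Psmb5, which carries the chymotrypsin-like site, read 1892 and 1487 in sham, 1670 and 1742 in L4, and 1467 and 1234 in L5. Its arrays overlapped with sham (-0.32 ± 0.18, adjusted p = 0.398), and all 4 of its probe sets lay below 0, from -0.52 to -0.20.

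The structural beta subunits Psmb1, Psmb2 and Psmb3 gave -0.33 ± 0.17, -0.17 ± 0.17 and -0.37 ± 0.21 against sham. Psmb3 read 461 and 455 in sham, 510 and 508 in L4, and 281 and 436 in L5 on its brightest probe set. There the 28-day L5 pool was the low one, and the gene gave -0.047 without that pool. Its other tested probe set gave 0.094 at 28 and -0.080 at 50 days, and 0.007 in the fit, so its probe sets disagreed. Psmb4, another structural subunit, read 3416 and 2252 in sham, 2965 and 2025 in L4, and 3842 and 2336 in L5. It was higher in each 28-day pool than in any 50-day pool, and its difference from sham was 0.11 ± 0.18, but -0.085 with median centring and -0.40 with hybridisation controls.

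The 7 alpha-ring genes had a median of -0.07 against sham. All were below 0, from -0.31 (Psma5) to a value just under 0 (Psma1), and none of these brightest probe sets reached an unadjusted p under 0.05 or had separated arrays. Other probe sets of 3 alpha-ring genes did both, all lower in L5: Psma6 rc_AI112633_s_at at -0.88, Psma2 E03358cds_g_at at -0.55 and Psma7 rc_AI179950_s_at at -0.49. On its dimmer tested probe set Psma1 gave 0.17 for L4 against sham and 0.31 for L5 against sham, with overlapping arrays. On its brightest it read 199 and 188 in sham, 272 and 295 in L4, and 197 and 188 in L5. Both L4 pools lay above the other 4 (0.52 ± 0.21 for L4 against sham, adjusted p = 1.00; unadjusted p = 0.0275). By their brightest probe sets Psma6 and Psma7 read higher in L5 than in sham at 28 days (0.047 and 0.037) and lower at 50 days. For Psma6 rc_AI071208_at gave the same signs, and rc_AI112633_s_at was lower at both days. For Psma7 D30804_at gave the opposite signs (-0.08 and 0.26). Of its other probe sets rc_AI179950_s_at was lower at both days, and rc_AI072328_at and rc_AA925475_at were higher at both days.

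Probe sets of 1 gene did not always give the same sign. Of 17 genes with several tested probe sets, 10 had all of them lower in L5 than in sham, 0 had all higher, and 7 were mixed. Psma7 ran from -0.49 to 0.48 over 5 probe sets and Psma6 from -0.88 to -0.10 over 3. With each gene at the median of its probe sets, the core gave -0.19 against L4.

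**Figure D4:**
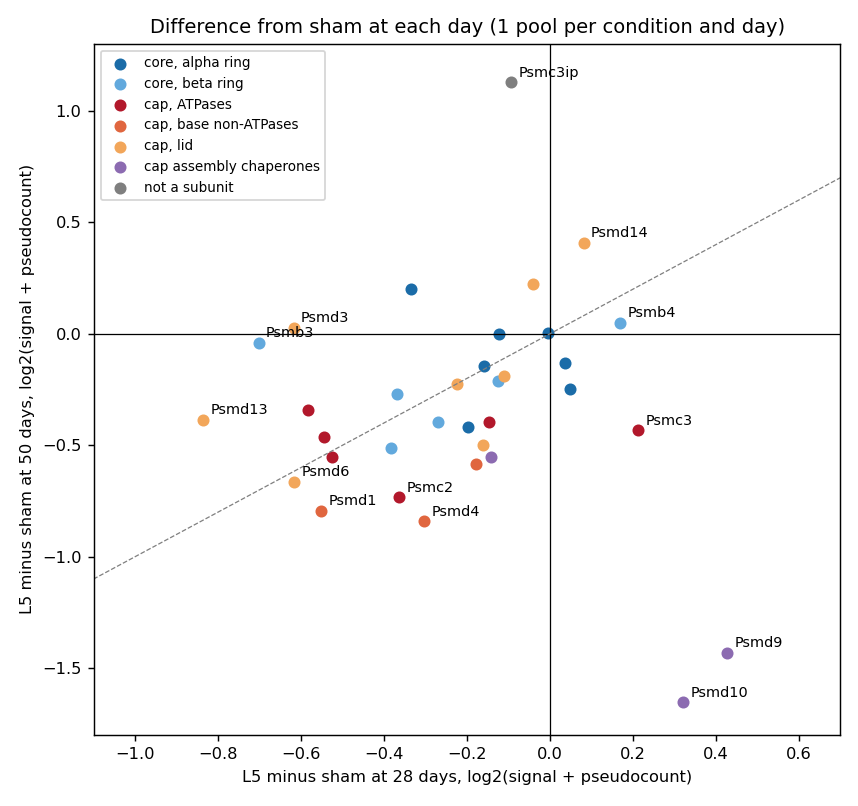
L5 minus sham at 28 days (horizontal) and at 50 days (vertical) for each of the 34 genes on the log2(signal + pseudocount) scale, 1 pool per condition and day; the dashed line marks equal values. The lower left holds the 21 genes below 0 at both days, with Psmd1 and Psmd6 among the farthest. By their brightest probe sets Psmd9 and Psmd10 lie far below 0 at 50 days only.

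At each day alone there was 1 pool per condition and no test. Of the 34 genes, 21 were below sham at both days (61.8%), beside 32.03% of all named genes. ATPase genes gave -0.44 and -0.45. Base subunits gave -0.30 and -0.79. The cap median was -0.25 without the 50-day sham pool. It ran from -0.50 to -0.25 as each pool was left out in turn.

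By the brightest probe set of each gene, the core median was lower at 50 than at 28 days in each condition. The median difference was -0.33 in sham, -0.17 in L4 and -0.24 in L5, and 11 of 13 genes were below 0 in the fit over all pools, with a median of -0.20. Psmb4 gave -0.62 (adjusted p = 0.104), Psma5 -0.45, Psma7 -0.43, Psma6 -0.43 and Psmb1 -0.40. Over all 31 tested core probe sets the median was 0.047 in sham, with 15 below 0, -0.23 in L4 and -0.062 in L5, and -0.050 in the fit, so the sign in sham turned with the choice of probe set. Of the other tested probe sets of these genes some lay above 0 for the day: L17127_at of Psmb4 at 0.54 and L17127_g_at at 0.17, the other 4 of Psma7 from 0.019 to 0.31, and rc_AI071208_at of Psma6 at 0.16. The rest lay below 0: rc_AI112633_s_at of Psma6 at -0.36, and rc_AI169479_s_at and D10756_at of Psma5 at -0.11 and -0.006. None of the 64 member probe sets passed, beside 0.286% of all tested; 8 were lower and 3 higher at an unadjusted p under 0.05. Cap genes gave a median of -0.09, and 0.067 without the 4 genes that are not subunits. With 1 pool per condition and day, day and pool cannot be told apart.

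Other genes of the ubiquitin pathway were taken as lists. Proteasome regulators and assembly factors had a median of -0.10 over 18 tested genes, 12 below 0, and none passed. Adrm1, a ubiquitin receptor of the cap, gave -0.52 ± 0.19 (adjusted p = 0.201), and Psmg3, a core assembly chaperone, gave -0.53 ± 0.20. Nfe2l1, a transcription factor known to drive proteasome genes, read 582 and 633 in sham, 732 and 879 in L4, and 791 and 810 in L5. By this brightest probe set both ganglia of operated rats lay above sham (0.38 ± 0.16 in L5, adjusted p = 0.281, and 0.39 in L4). Its other 3 tested probe sets gave 0.069, 0.052 and -0.42 in L5 against sham. The inducible subunits Psmb8, Psmb9 and Psmb10 were dim (mean signal 69.0, 76.5 and 74.7). They gave 0.33 ± 0.33, 0.23 ± 0.26 and -0.39 ± 0.28, and none passed (limma adjusted p = 0.627, 0.684 and 0.506). A second tested probe set of Psmb9 gave 0.91 ± 0.37.

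Enzymes that activate and conjugate ubiquitin had a median of -0.25 over 30 genes, 23 below 0, with 6 lower at an unadjusted p under 0.05 and none passing; Ube2m and Ube2n, conjugating enzymes, gave -0.70 and -0.65. Ubiquitin ligases had a median of -0.25 over 35 genes, 26 below 0. Mycbp2, a ligase known for its part in axon degeneration, read 834 and 691 in sham, 640 and 767 in L4, and 377 and 369 in L5. It passed against sham (it fell by 1.00 ± 0.19, adjusted p = 0.0411) and against L4 (by 0.89, adjusted p = 0.0471). Deubiquitinases had a median of -0.05 over 26 genes, 14 below 0; Bap1 gave -1.02 (adjusted p = 0.0539) and Usp8 -0.84. Substrate shuttles and the segregase gave -0.16 over 18 genes, with Ufd1 at -0.42 and Ube4b at 0.38. Vcp, the segregase, gave -0.38, and 0.023 and -0.19 on its other probe sets. Subunits of the cytosolic chaperonin gave -0.13 over 7 genes, with Cct2 at -0.72 and Cct3 at -0.50. For the genes that encode ubiquitin itself no single-symbol probe set was tested.

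**Figure D5:**
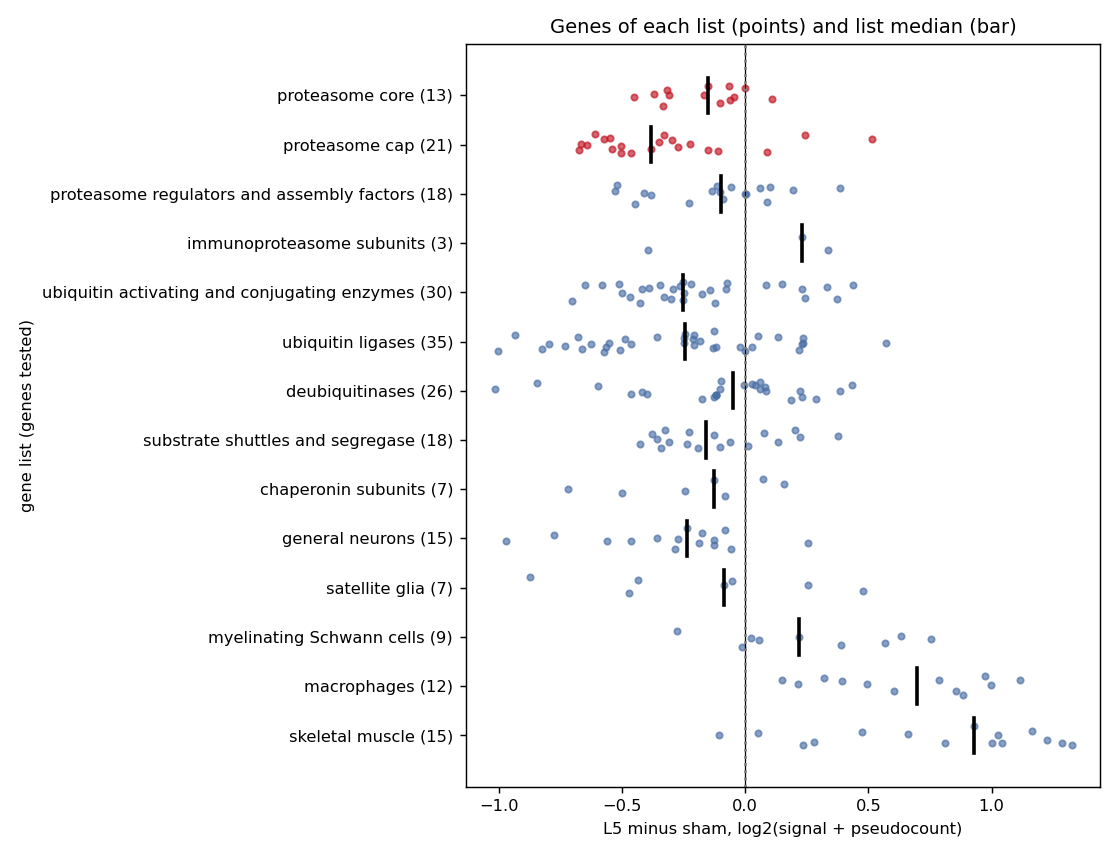
L5 minus sham for each gene (points, brightest tested probe set) and the list median (bar), on the log2(signal + pseudocount) scale, for the proteasome core and cap, other lists of the ubiquitin pathway and cell type markers; the number of genes tested stands in brackets. The cap median lies at -0.38 and the ligase and conjugating enzyme medians at -0.25, beside a median of 0.00 over all named genes.

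Markers of cell types and measures of RNA quality differed between the same pools. Of 15 tested neuron markers 14 were below 0 in L5 against sham, with a median of -0.24; their summed signal was 54288 and 62472 in sham, 53958 and 58379 in L4, and 46764 and 54142 in L5. The 12 macrophage markers were all above 0, with a median of 0.70, and summed to 2034 to 2268 in sham and to 6073 and 2310 in L5. Skeletal muscle markers gave 0.93 over 15 genes, myelinating Schwann cell markers 0.22 over 9 and satellite glia markers -0.09 over 7. Among large complexes, oxidative phosphorylation genes gave -0.27 (62 of 79 below 0) and cytosolic ribosomal protein genes 0.31 (6 of 54 below 0). The 3′ to 5′ signal ratio of Gapdh ran from 5.10 to 11.9 on sham arrays, 2.90 to 6.88 on L4 arrays and 2.99 to 5.85 on L5 arrays. The part of these in the proteasome differences was not tested.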

How the data were processed

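Per the submitters' processing notes MAS5 (version not given in the sources used here) gave the deposited intensity of each probe set, which is linear. Arrays were scaled to a common trimmed mean within a chip type (without the top and bottom 2% of values). Tests used log2(signal + pseudocount) with a pseudocount at the 20th percentile of signals (12.8, 17.7 and 20.2 on A, B and C), and this understates folds of dim genes. Probe sets under the 40th percentile of the mean were not tested. The 2 arrays of a pool, which share RNA, were averaged, and limma 3.58.1 in R 4.3.3 (lmFit, eBayes with an intensity trend) modelled the 6 pools by condition and day for each chip type, leaving 2 residual degrees of freedom; the Benjamini-Hochberg adjustment ran over the 3 chip types together. The number of pools, not that of arrays, limits the precision. Array signals correlated at r = 0.882 to 0.958 within a pool. The code was tested on simulated data.

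Members, gene lists and alternatives were chosen with earlier results of these data known. Named with values were genes with a called probe set, the 6 core and 6 cap genes farthest from sham, the catalytic subunits, the ATPases, Psmd4 and Psmd14, and of each pathway list (not of markers or comparator complexes) up to 3 called genes or otherwise the 2 farthest from sham. Other genes were named after their values were seen. Array numbers did not pair the pools (r from -0.10 to 0.11 between same-numbered arrays over 45 pairs of pools). For 1 chip B sham array the title and description give different days; the title, 28 days, was used (r = 0.954 with the other 28-day sham array, 0.933 and 0.929 with those of 50 days). Symbols came from the platform annotation and promoter sequences from RefSeq, GRCr8.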

Additional observations from a re-analysis of the deposited data

Results flagged for a closer look

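Psmc3, an ATPase of the cap base, was picked out because its difference between L5 and sham had opposite signs at the 2 days, on both arrays of each pool. It was 0.21 at 28 days and -0.43 at 50 days on the log2(signal + pseudocount) scale. There was 1 pool per condition and day, so the difference between the days was not tested. Opposite signs were not particular to Psmc3. Of the 34 member genes 21 were below sham at both days and 2 above at both, and of 8279 named genes 2652 and 2551.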

How the results depend on the processing

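Alternatives were 18 settings and the removal of each of 6 pools. In all of these the medians of core and cap stayed below 0 against sham and against L4. Several do not bear on the sign, because they left these medians as in the main fit. These were the settings of filter, intensity trend, robust eBayes, arrays entered apart and day term. Leaving out an L4 pool also left the medians against sham unchanged, and leaving out a sham pool those against L4. A median counts as moved if it shifted by more than 0.046 (core) or 0.13 (cap), the SD between days and conditions pooled over the comparisons. Scaling to hybridisation controls shifted the median of all tested probe sets to -0.43 against sham, 0.20 for L4 against sham and -0.64 against L4. The core then gave -0.63, 0.17 and -0.78 and the cap -0.83, 0.28 and -1.08, or -0.20, -0.03 and -0.14 (core) and -0.40, 0.08 and -0.45 (cap) relative to that shift; 26 member probe sets passed against sham and 51 against L4, of 64, beside 18.3% and 42.7% of all tested. With it Psmd14 gave -0.31 against sham and -0.23 against L4, Psmb4 -0.40, Psmd7 -0.32, Psmc3ip -0.035, and the called Psmd1 probe set 0.090 for L4 against sham. Median centring gave -0.35 (core) against sham, -0.32 (core) and -0.61 (cap) against L4 and -0.33 (core) for the day, with 3, 8 and 1 member probe sets passing against sham, against L4 and for the day (2.69%, 4.28% and 0.566% of all tested), and turned Psmb4 to -0.085 and Psmd7 to -0.0046; quantile normalization turned Psmd7 to -0.00053. The first arrays alone gave -0.20, 0.072, -0.36 and -0.33 for the core (L5 against sham, L4 against sham, L5 against L4, day) and the second -0.029 for L4 against sham and -0.040 for L5 against L4. On the second arrays Psmc6 gave 0.050 against sham and 0.0041 against L4 and Psmc3 gave 0.019 against L4. Without suffixed probe sets the core gave -0.064, 0.096 and -0.024 (L5 against sham, L4 against sham, day) and the cap 0.086 for the day. The median over a gene's probe sets gave -0.19 (core against L4), -0.11 (core, day) and 0.067 (cap, day), as did the cap subunits alone for the day (0.067), an alternative chosen after seeing the data.

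No member probe set passed against sham or L4 (0 in each) with quantile normalization, no filter, no intensity trend, no day term, or on the first or second arrays alone. Without suffixed probe sets 0 passed too, but this setting drops the called probe set by construction. With arrays entered apart 11 passed against sham, 11 against L4 and 5 for the day (7.08%, 8.76% and 6.52% of all tested). In the paired analysis, with the array number as a replicate block, these were 10, 8 and 5 (6.18%, 7.5% and 5.01% of all tested); the numbers do not pair the pools, so this is given for completeness. Leaving out a pool gave 0 to 4 calls against sham, 0 to 5 against L4 and 0 to 1 for the day, beside 0.204% to 3.92%, 0.712% to 4.97% and 0.439% to 2.88% of all tested. Medians then ran from -0.18 to -0.15 (core) and -0.50 to -0.25 (cap) against sham, -0.22 to -0.13 and -0.50 to -0.34 against L4, -0.019 to 0.022 and -0.0063 to 0.10 for L4 against sham, and -0.29 to -0.21 and -0.16 to 0.039 for the day. As each pool was left out, Psmd10 ran from -1.61 to 0.28 against sham and from -1.60 to 0.29 against L4, the highest being without the 50-day L5 pool. Against sham Psmc3 ran from -0.44 to 0.22 and Psmd7 from -0.11 to 0.29; Psmc6 ran from -0.29 to 0.023 against L4, and the called Psmd1 probe set from -0.13 to 0.029 for L4 against sham. The cause of these shifts was not tested.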
